A study of Homo sapiens with 6 samples.

Results

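The 41 glycolysis and hypoxia response genes described here were chosen by name from the biology of the pathway, with earlier results of these data known. Their expression was read in HCT116 cells, a human colorectal cancer line. A gene was taken as all mRNA transcripts carrying its symbol, and its counts were summed over those transcripts. All 41 symbols were present among the 19871 symbols of the deposited tables. Fold changes were computed for the 11907 symbols whose mean of the 3 group sums was at least 50, and 40 of the 41 genes were among them. The gene left out was CA9, with mean counts of 21, 14.5 and 21 in the groups NC, GAS5 and siYAP. The gene just inside the minimum was ANKRD37, with 98.5, 97 and 93.5.

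The study sequenced total RNA from 3 groups of HCT116 cells, each with 2 libraries made with a strand-marking protocol: a control named NC, cells with the long noncoding RNA GAS5 (GAS5) and cells with siRNA against YAP (siYAP). The treatment label, shared by all samples, names a plasmid for GAS5 and siRNA specific for YAP, a transcriptional coactivator of the Hippo pathway. What the NC cells received, how long transfection lasted and whether the 2 libraries of a group came from separate cultures are not stated. No low-oxygen treatment is named, and for the medium the labels name McCoy's 5a with serum whereas the study's methods name an RPMI medium, so the glucose supply is not settled by these sources. All groups are a single cell line, and GAS5 itself has no value in the mRNA tables used here.

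Glycolysis splits glucose into pyruvate in the cytosol. Glucose enters through facilitative transporters, passes through hexokinase, phosphofructokinase and aldolase in the upper part and through glyceraldehyde-3-phosphate dehydrogenase, enolase and pyruvate kinase in the lower part, and the pyruvate is either reduced to lactate by lactate dehydrogenase or oxidised in mitochondria, a route that the pyruvate dehydrogenase kinases restrain. Many of these genes are induced by the hypoxia-inducible factors (HIF), pairs of an oxygen-sensitive alpha subunit and ARNT. In the presence of oxygen, prolyl hydroxylases of the EGLN family mark the alpha subunit for the ubiquitin ligase that contains VHL. Tumour cells of the colon are known for high glycolysis also when oxygen is present.

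HIF binds a short core, ACGTG or GCGTG, within hypoxia response elements. RefSeq promoters (GRCh38.p14) were found for 36 of the 41 genes, and none was listed for SLC2A3, VEGFA, NDRG1, BNIP3L and VHL. In the 250 bases before the start, read on both strands, 22 of the 36 promoters (61.1%) held the core, against 43.1% of 27305 promoters of the same length. ACGTG alone was in 38.9% of the gene set and 18.7% of all promoters, and GCGTG alone in 36.1% and 31.9%. Matches may overlap, because CACGTG reads as a core on either strand. BNIP3 held the most matches, 6, and LDHA and ALDOC had 5 each, whereas PDK1, P4HA2 and PKM had 0. For comparison, the letters CATTCC, the core bound by the TEAD factors that YAP works with, were in 2 of the 36 promoters (5.56%), ENO1 and PGAM1, against 11.9% of all. These matches are letters in a window and say nothing about binding.

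The windows of 30 bases below show the core in promoters of genes that differ in the values given later: LDHA, which differed most between GAS5 and siYAP among the enzymes, PGK1, whose values stayed close, BNIP3, with the most matches, HK2 and EPAS1. Capitals mark the core on either strand. The LDHA windows are chr11:18394368-18394397 and chr11:18394468-18394497 on the plus strand, the PGK1 window is chrX:78104042-78104071 on the plus strand, the BNIP3 window is chr10:131982031-131982060 on the minus strand, and the HK2 and EPAS1 windows are chr2:74834061-74834090 and chr2:46297277-46297306 on the plus strand. All lie upstream of the RefSeq start in GRCh38.p14.
LDHA, farther window: actcccagcgCACGTGgagcagtctgccgg
LDHA, nearer window: ccgactcaCACGTGggttcccgCACGTccg
PGK1: ccggACGTGacaaacggaagccgCACGTct
BNIP3: ccgCACGTGccaCACGCacccCACGCccct
HK2: gcagccaatggGCGTGcgCACGTcactgat
EPAS1: ggggcctgccggcGCGTGcccgcccacaca

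A further sequence distinguishes the 2 forms of pyruvate kinase. PKM makes M1 or M2 by including either of a pair of coding exons of 167 bases each on chromosome 15, minus strand (GENCODE 29, GRCh38). M1 uses the upstream exon, chr15:72203022-72203188, and M2 the downstream exon, chr15:72202454-72202620. The exons differ at 62 bases (62.9% identity), marked in capitals below.
PKM M1 exon: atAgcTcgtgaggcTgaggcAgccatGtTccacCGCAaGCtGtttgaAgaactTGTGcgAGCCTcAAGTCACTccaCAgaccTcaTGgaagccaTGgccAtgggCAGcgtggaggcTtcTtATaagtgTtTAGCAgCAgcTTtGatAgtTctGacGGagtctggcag
PKM M2 exon: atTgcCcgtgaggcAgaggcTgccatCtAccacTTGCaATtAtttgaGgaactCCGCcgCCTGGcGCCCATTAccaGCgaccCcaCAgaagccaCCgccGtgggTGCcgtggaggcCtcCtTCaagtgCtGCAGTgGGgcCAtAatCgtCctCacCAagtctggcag

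The tables hold 1 column per group, taken as the mean of its 2 libraries, and no separate libraries. No spread between libraries, test or p-value is therefore given. Each log2 fold change comes with a 95% interval for the counts behind the means, which covers counting error only. Mean counts totalled 27206123 for NC, 25521577 for GAS5 and 26298036 for siYAP. YAP1, the target of the siRNA, had scaled mean counts of 3480, 2912 and 1537, a log2 fold change of -0.26 in GAS5 and of -1.18 in siYAP. Among 10 colon epithelial markers, EPCAM, KRT8, KRT18, KRT19, CDH1 and CDX2 passed the minimum, and CDX1, VIL1, CEACAM5 and LGALS4 had at most 6 mean counts. Of 7 markers of other cells (leukocytes, macrophages, endothelium and fibroblasts), PTPRC and DCN were at 0, PECAM1 and COL1A2 had at most 6 mean counts, and CD68, COL1A1 and ACTA2 passed the minimum. The 7 together had 792, 1265 and 1214 scaled counts in the groups NC, GAS5 and siYAP. On the log2 scale CD68 was at 0.58 in GAS5 and 0.09 in siYAP, COL1A1 at 0.67 and 0.60, and ACTA2 at 0.73 and 1.00. The part of these markers in the values below was not tested. A list of 8 interferon-stimulated genes was picked because they had been seen to rise in GAS5 in an earlier account of these data. Their rise is therefore a description and no separate finding. On the log2 scale they were at 1.55 to 4.93 in GAS5 against NC, and at -0.54 to 0.54 in siYAP. Of all genes, 1.07% reached 2-fold in either direction in GAS5 against NC. The part of these 8 genes in the values below was not tested.

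Transcript levels of the 41 genes in NC spanned 13600-fold per length. GAPDH led at 6344 FPKM (fragments scaled by transcript length and library size) and ranked 3 of 19871 symbols, and CA9 was lowest at 0.465. ENO1, PKM, ALDOA and TPI1 were also among the 100 highest symbols. Per length, the 15 glycolytic enzymes from hexokinase to pyruvate kinase made up 2.52% of all mRNA FPKM in NC, 2.77% in GAS5 and 2.49% in siYAP. GAPDH alone made up 1.23%, 1.33% and 1.19%.

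**Figure D1:**
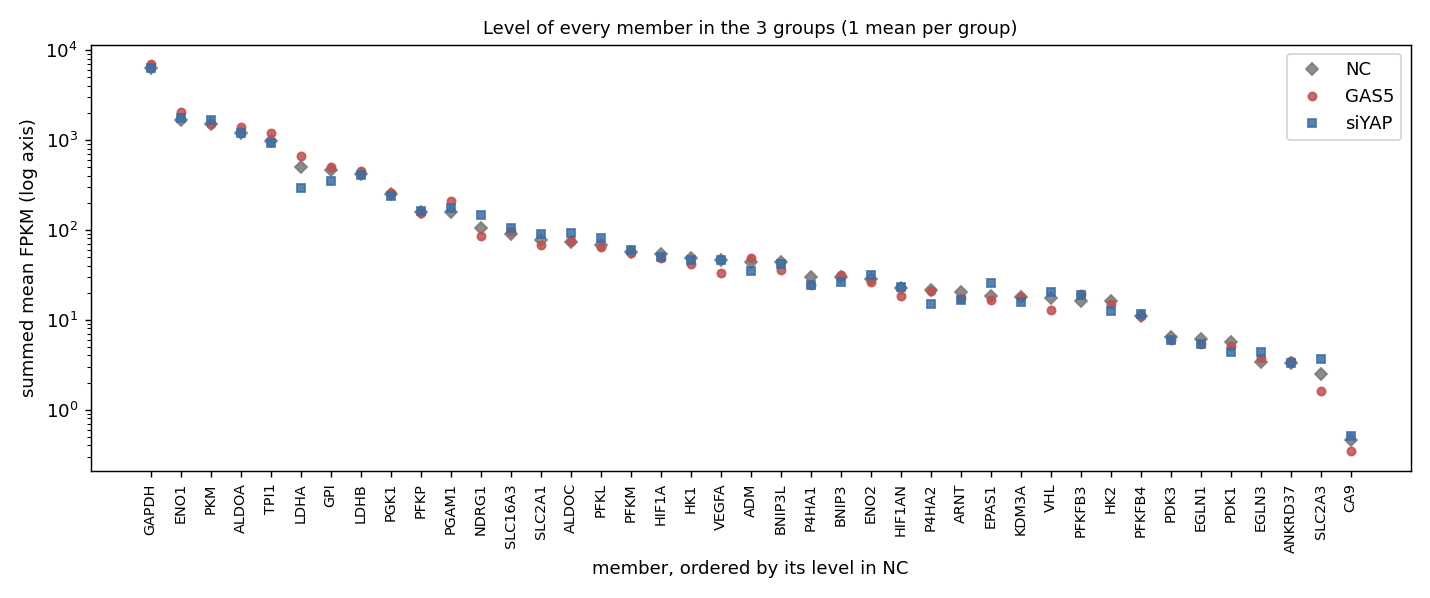
Level of each of the 41 genes in NC, GAS5 and siYAP, as the FPKM summed over its transcripts on a log axis, with genes ordered by their level in NC and 1 mean per group, without error bars. GAPDH at 6344 FPKM in NC and CA9 at 0.465 are the ends of the order, and LDHA and SLC2A3 are among the genes whose 3 points lie visibly apart.

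As a set, the genes stayed near their level in NC in either treatment. For GAS5 against NC, the median log2 fold change of the 40 genes was -0.01 (0.00 over all 11907 genes), and values ran from -0.61 to 0.45. No gene was at least 1.5-fold higher (2.55% of all genes were), and 1 of 40, SLC2A3, was at least 1.5-fold lower (2.5%, against 1.99% of all genes and 4.54% in either direction). For siYAP against NC, the median was 0.02 (all genes 0.00) and the range -0.72 to 0.60. SLC2A3 was at least 1.5-fold higher (1 of 40, against 2.94% of all genes), and LDHA and PDK1 were lower (2 of 40, 5%, against 4.19%), or 7.5% in either direction against 7.13% of all genes. None of the 40 reached 2-fold in either comparison, where 1.07% and 0.84% of all genes did. These shares were near those of all genes. The comparisons share the NC mean, so their values are given side by side and were not related to each other. In bulk RNA, a change in the share of cells expressing a gene and a change in RNA per cell cannot be told apart.

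GAS5 against siYAP, which does not use NC, held the widest differences. The median over the 40 genes was -0.03 (all genes 0.01), with values from -1.21 to 1.15. LDHA was at least 1.5-fold higher in GAS5 (1 of 40, 2.5%, against 6.95% of all genes). EPAS1, NDRG1, SLC2A3, VEGFA and VHL were at least 1.5-fold lower (5 of 40, 12.5%, against 5.89%). In either direction this was 15% of the 40 genes and 12.8% of all genes, and LDHA and SLC2A3 were past 2-fold (5%, against 2.26%).

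**Figure D2:**
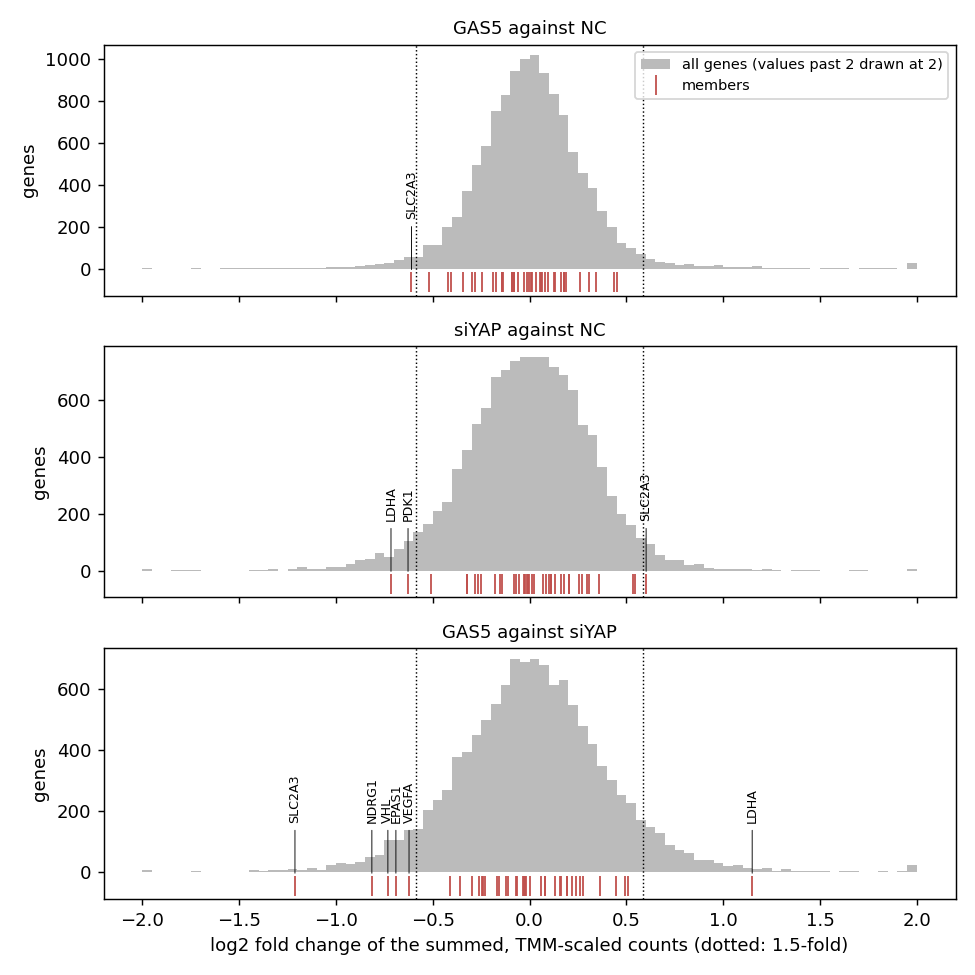
Histograms of the log2 fold change of the summed, TMM-scaled counts over 11907 genes (grey) in the 3 comparisons, with the 40 glycolysis and hypoxia genes as ticks below and dotted lines at 1.5-fold. The ticks lie within the body of the histogram in GAS5 against NC, and SLC2A3 at -1.21 and LDHA at 1.15 stand at its edges in GAS5 against siYAP.

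Glucose uptake and lactate export were represented by 3 transporters, all higher in siYAP than in NC. SLC2A1 (GLUT1), the main basal glucose transporter, had scaled mean counts of 7746 in NC, 7019 in GAS5 and 9337 in siYAP, with log2 fold changes of -0.14 (95% interval -0.18 to -0.11) and 0.27 (0.24 to 0.30). SLC2A3 (GLUT3), a high-affinity transporter, had 271.5, 177.2 and 413.1. GAS5 was the lowest and siYAP the highest group for this gene. Its log2 fold change was -0.61 (-0.81 to -0.42) in GAS5, 0.60 (0.45 to 0.76) in siYAP, and -1.21 (-1.41 to -1.04) between GAS5 and siYAP, so that its level in GAS5 was 2.32-fold below that in siYAP. The value against NC passed 1.5-fold narrowly: it was -0.45 in GAS5 with Ensembl transcripts alone, and 0.56 in siYAP with total counts and with FPKM sums. Ensembl transcripts alone gave 0.77 in siYAP. The transcript ENST00000075120 held 88.6% of SLC2A3 counts in NC and 100% in GAS5 and in siYAP. The gene was a minor transporter at 2.51, 1.60 and 3.70 FPKM, and SLC2A1 made up 96.8%, 97.7% and 96.0% of the FPKM of the pair. The transcript of SLC2A3 shares 50-base stretches with SLC2A14 and other loci, and 75.9% of its stretches occur in no other gene, so its counts are uncertain to that degree. SLC16A3 (MCT4), which exports lactate and was the most abundant transporter per length, had 89.4 FPKM in NC, 95.9 in GAS5 and 105.5 in siYAP, with log2 fold changes of its counts of 0.13 (0.09 to 0.17) and 0.26 (0.22 to 0.29).

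In upper glycolysis, none of the 9 genes reached 1.5-fold in any comparison, and the median log2 fold change was 0.01 in GAS5 and 0.07 in siYAP. HK2, the hexokinase that tumours and insulin-responsive tissues induce, had scaled mean counts of 2545 in NC, 2407 in GAS5 and 2036 in siYAP, a log2 fold change of -0.08 (-0.14 to -0.02) and of -0.32 (-0.38 to -0.26). HK1, the widely expressed hexokinase, made up 75.3%, 73.9% and 79.0% of the FPKM of the pair, so HK2 was the lesser form in every group. GPI, which isomerises glucose 6-phosphate, had 23553, 26793 and 18840, and the groups were ordered as for LDHA, with GAS5 highest and siYAP lowest. The difference between GAS5 and siYAP was 0.51 on the log2 scale (0.49 to 0.53).

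Phosphofructokinase, the committed step, is formed from 3 genes. PFKP, the platelet type, was the major form at 55.7%, 56.7% and 53.4% of their FPKM, and its count differed by 0.01 and 0.08 on the log2 scale. PFKL, the liver type, was 0.30 higher in siYAP (0.26 to 0.34) and -0.06 in GAS5. ALDOA, the aldolase of most tissues and the most abundant gene of the upper part, had 1179 FPKM in NC, 1382 in GAS5 and 1205 in siYAP, with log2 fold changes of its counts of 0.26 (0.25 to 0.27) and 0.07 (0.06 to 0.08). Of the 50-base stretches of its main transcript, 7.56% occur in no other gene, and the rest are shared with AC093512.2 and ALDOAP2, so the value of ALDOA depends on how reads were assigned. The check did not compare positions, so an entry that overlaps ALDOA itself would also count as another gene. TPI1, which interconverts the triose phosphates, was 0.34 higher in GAS5 and -0.02 in siYAP, and 69.9% of its stretches occur in no other gene. ALDOC, a brain-type aldolase, was at 0.06 and 0.36. The hexokinase, phosphofructokinase and aldolase families thus kept the same leading form in each group.

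The enzymes that set fructose 2,6-bisphosphate, an activator of phosphofructokinase, lay close together. PFKFB3, the form with mostly kinase activity, had scaled mean counts of 1458 in NC, 1652 in GAS5 and 1679 in siYAP, with log2 fold changes of 0.18 (0.11 to 0.25) and 0.20 (0.13 to 0.28). PFKFB4 had 0.07 and 0.13. GAS5 and siYAP differed by -0.02 and -0.06 for these genes, with counting intervals that included 0, and PFKFB3 was at 0.03 with FPKM sums.

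Of the 6 genes of lower glycolysis, none reached 1.5-fold, and 5 had values above 0 in each treatment, where 50.2% of all genes were above 0 in GAS5 and 50% in siYAP. With FPKM sums this was 4 of 6 in each treatment, since PKM was at -0.002 in GAS5 and GAPDH at -0.02 in siYAP, where GAPDH was at -0.02 with total counts too. GAPDH, often used as a reference gene, had scaled mean counts of 224560 in NC, 254156 in GAS5 and 227742 in siYAP. It was 0.18 higher in GAS5 (0.17 to 0.19) and 0.02 in siYAP (0.01 to 0.03), both small in size although the counting intervals are narrow. Of the stretches of GAPDH, 79.1% occur in no other gene. PGAM1, a mutase, had the highest value of the set in GAS5 against NC, 0.45 (0.42 to 0.48), with 7994, 10945 and 9055, and 56.9% of its stretches occur in no other gene. ENO1, the main enolase, had 0.31 and 0.11, and PGK1, the ATP-forming kinase whose promoter window is shown above, had 0.05 and -0.03.

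PKM had scaled mean counts of 96677 in NC, 98858 in GAS5 and 111149 in siYAP, with log2 fold changes of 0.03 (0.02 to 0.04) and 0.20 (0.19 to 0.21). Nearly all assigned counts belonged to M2, the form of proliferating cells. Transcripts with the downstream exon shown above made up 99.0% of the counts of M1 and M2 together in NC, 98.6% in GAS5 and 99.0% in siYAP. Transcripts with the M1 exon made up 0.97%, 1.37% and 1.04%. Another 6.91%, 5.70% and 6.70% of PKM counts were in transcripts not in GENCODE 29, whose exon use was not read. These shares come from the deposited assignment of reads to transcripts, whose error is not given.

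The fate of pyruvate held the clearest differences among the enzymes. LDHA, the lactate dehydrogenase subunit favoured in glycolytic tissue, had scaled mean counts of 25986 in NC, 35100 in GAS5 and 15819 in siYAP. GAS5 was the highest and siYAP the lowest group. The log2 fold change was 0.43 (0.42 to 0.45) in GAS5 and -0.72 (-0.74 to -0.70) in siYAP, and the difference between GAS5 and siYAP was 1.15 (1.13 to 1.17), or 2.22-fold. LDHB, the subunit of oxidative tissue, had 14442, 15740 and 14376, with 0.12 and -0.01. LDHA therefore made up 54.5% of the FPKM of the pair in NC, 59.5% in GAS5 and 42.1% in siYAP, and the ratio of LDHA to LDHB was 1.20, 1.47 and 0.726. Of the families with 2 or more genes in the set, lactate dehydrogenase was the one whose leading gene was not the same in every group. Its main transcript, ENST00000379412, held 69.0%, 72.2% and 71.5% of LDHA counts, and no LDHA transcript differed from NC by 10 percentage points in its share. In the stretch check 87.2% of LDHA and 26.9% of LDHB occur in no other gene, which leaves LDHB the less certain of the pair.

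PDK1, a mitochondrial kinase that shuts off pyruvate dehydrogenase and is a known HIF target, had 600, 451.6 and 387.5 scaled mean counts in NC, GAS5 and siYAP. NC was the highest group. The log2 fold change was -0.41 (-0.54 to -0.28) in GAS5 and -0.63 (-0.76 to -0.50) in siYAP. Sums of FPKM gave -0.17 and -0.36, so that PDK1 stayed under 1.5-fold on that scale. PDK3 had 336.5, 316.3 and 320.5, with -0.09 and -0.07, and its intervals included 0.

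**Figure D3:**
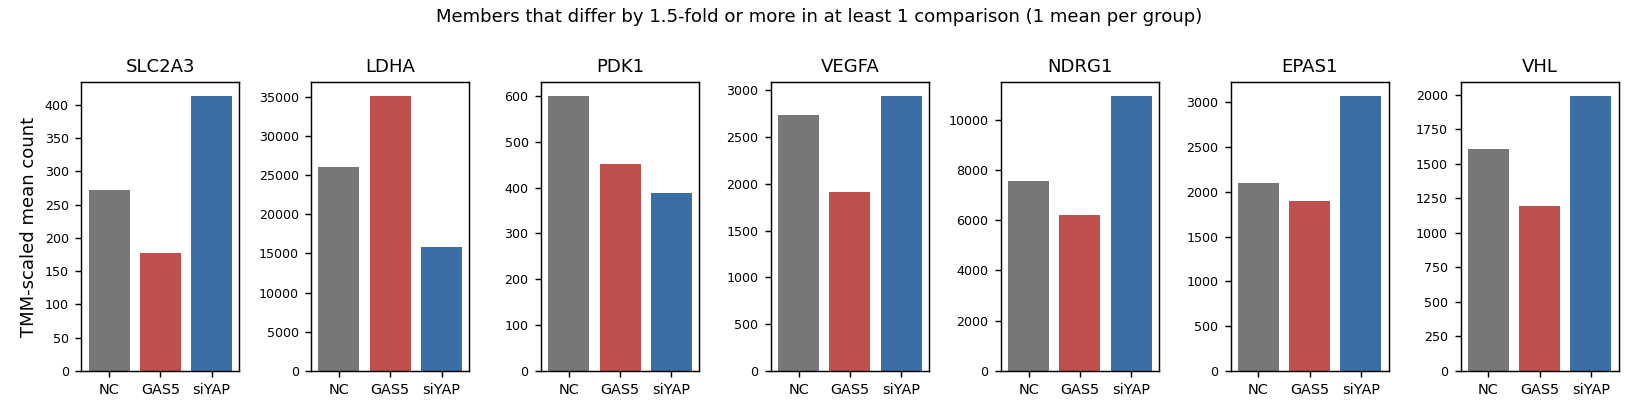
TMM-scaled mean counts, on linear axes starting at 0, of the 7 genes that differed by 1.5-fold or more in at least 1 of the 3 comparisons, with 1 mean per group and no error bars. LDHA is highest in GAS5 at 35100 and lowest in siYAP at 15819, while SLC2A3, VEGFA, NDRG1, EPAS1 and VHL are lowest in GAS5 and highest in siYAP, and PDK1 is highest in NC.

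The 10 hypoxia targets outside glycolysis lay on both sides of NC. Among the 9 that passed the minimum, 4 were above and 5 below 0 in GAS5, and 3 above and 6 below in siYAP. With total counts or FPKM sums these were 3 and 6 in GAS5, through KDM3A, and 2 and 7 in siYAP, through ANKRD37. VEGFA, the main angiogenic growth factor, had scaled mean counts of 2739 in NC, 1908 in GAS5 and 2938 in siYAP. Its log2 fold change was -0.52 (-0.58 to -0.46) in GAS5 and 0.10 (0.05 to 0.16) in siYAP, and the difference between GAS5 and siYAP was -0.62 (-0.68 to -0.56), or -0.48 with FPKM sums. NDRG1, a differentiation and stress gene that hypoxia induces and the most abundant of these targets per length, had 105.2, 86.0 and 147.6 FPKM. Its counts were 7568, 6222 and 10947, with -0.28 (-0.32 to -0.25) in GAS5, 0.53 (0.50 to 0.56) in siYAP and -0.82 (-0.85 to -0.78) between them. VEGFA and NDRG1 were thus both lowest in GAS5 and highest in siYAP.

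ADM, which encodes the vasodilator adrenomedullin, was ordered the other way, with 1689, 1892 and 1387 scaled mean counts and 0.16 and -0.28 on the log2 scale. P4HA1 and P4HA2 encode prolyl hydroxylases of collagen. P4HA2 was at -0.51 (-0.60 to -0.42) in siYAP and -0.02 in GAS5, and P4HA1 at -0.27 and -0.30. BNIP3 and BNIP3L, receptors for the removal of mitochondria, were at 0.08 and -0.34 in GAS5 and at -0.18 and -0.08 in siYAP. KDM3A, a histone demethylase, had 0.01 and -0.16, and ANKRD37, at about 100 counts, had 0.10 and 0.02 with intervals that included 0. CA9, the carbonic anhydrase whose RNA is a widely used sign of HIF activity, was at 0.465, 0.345 and 0.505 FPKM in the 3 groups. This marker was thus near 0 in NC and in both treatments, and HIF activity itself was not measured.

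Among the 7 genes that control HIF, all had summed counts below NC in GAS5, with log2 fold changes from -0.42 to -0.03, where 49.8% of all genes were below 0. With FPKM sums this was 6 of 7, since EGLN3, whose counting interval of -0.22 to 0.17 included 0, was at 0.14. In siYAP 4 were below and 3 above 0, or 3 and 4 with DESeq2 size factors or FPKM sums, through HIF1AN. The order was not shared by 13 further genes of HIF control, read from a list given below. Of these, 8 were above 0 and 5 below in GAS5, and likewise 8 and 5 in siYAP. HIF1A, the alpha subunit of most glycolytic induction and the most abundant gene of this group, had scaled mean counts of 5490 in NC, 5151 in GAS5 and 5280 in siYAP, with -0.09 (-0.13 to -0.05) and -0.06 (-0.10 to -0.02). HIF1A is controlled mainly at the protein, which these data do not measure. EPAS1 (HIF-2 alpha) had 2100, 1900 and 3068, with -0.14 (-0.21 to -0.08), 0.55 (0.49 to 0.60) and -0.69 (-0.75 to -0.63) between GAS5 and siYAP. With assembled transcripts left out, the value in siYAP was 0.88. The EPAS1 level per length was 0.345, 0.342 and 0.507 of that of HIF1A, so siYAP was the group that stood apart.

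VHL, the substrate receptor that removes the alpha subunits, had 1608, 1198 and 1991 scaled mean counts. GAS5 was lowest and siYAP highest, as for EPAS1. The values were -0.42 (-0.50 to -0.35), 0.31 (0.24 to 0.38) and -0.73 (-0.81 to -0.66). The remaining regulators were closer to NC. ARNT, the partner subunit, had -0.19 and -0.25, EGLN1, the main oxygen sensor, -0.14 and -0.14, EGLN3 -0.03 and 0.20, and HIF1AN, the asparagine hydroxylase of the alpha subunits, -0.24 and 0.00.

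**Figure D4:**
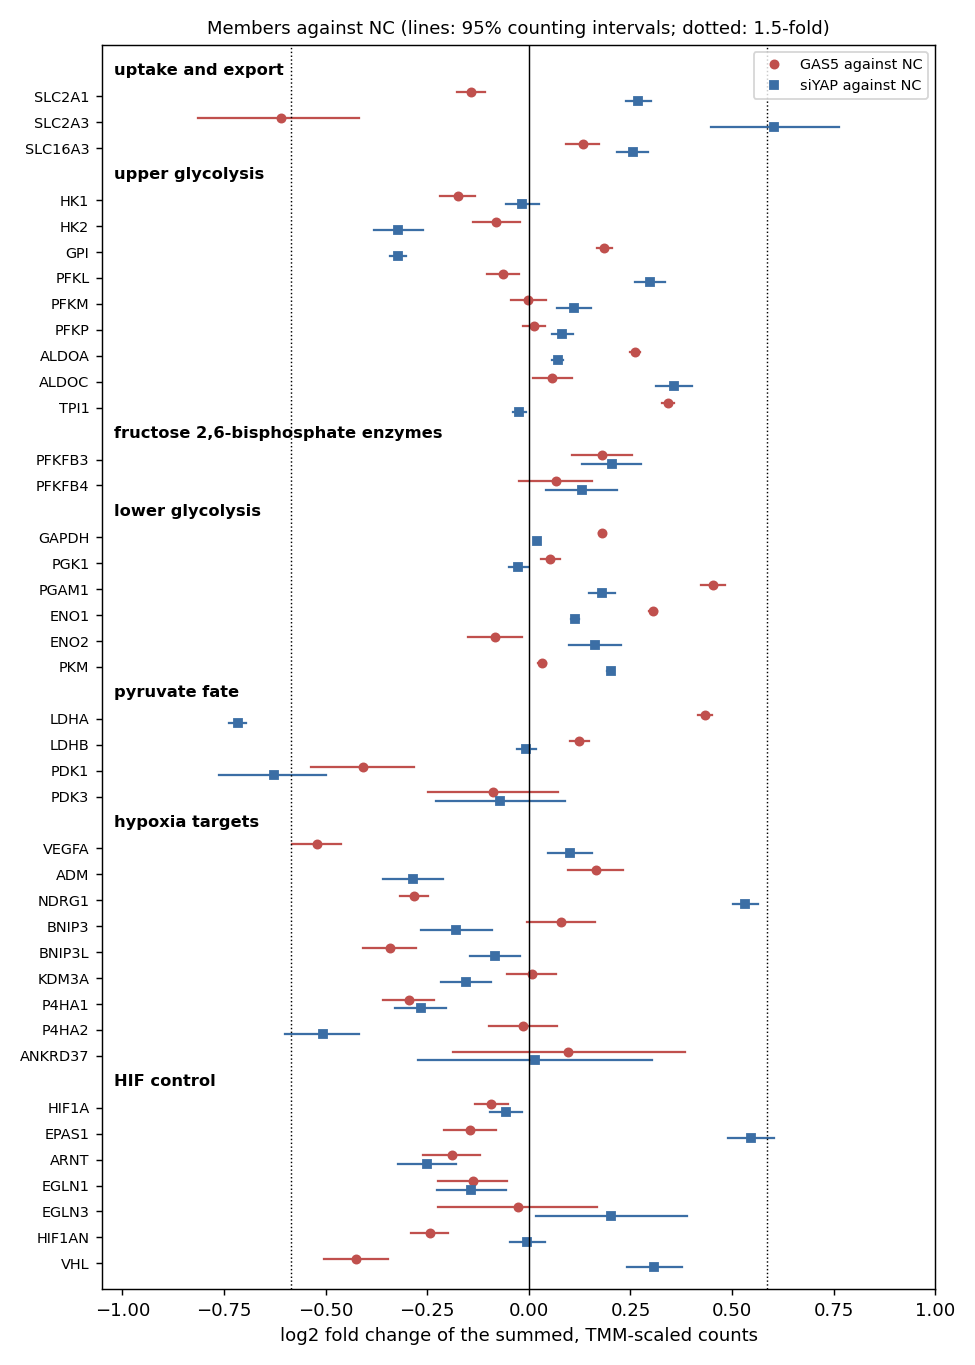
Log2 fold change of the summed, TMM-scaled counts against NC for 40 genes by role, in GAS5 (circles) and siYAP (squares), with 95% counting intervals as lines and 1.5-fold as dotted lines. SLC2A3 at -0.61 is the only circle past a dotted line, SLC2A3 at 0.60, LDHA at -0.72 and PDK1 at -0.63 are the only squares, and all 7 circles of the HIF control genes lie left of 0, of which EGLN3 at -0.03 is right of 0, at 0.14, with FPKM sums.

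Below the gene sums, the 323 transcripts of the set were examined, of which 129 had a mean of at least 50. In the 37 genes with a sum of at least 200 in every group, 6 transcripts in 5 genes had a share of their gene that differed by 10 percentage points or more from NC. The widest shift was in ENO2, the neuronal enolase and a minor one here, whose count differed by -0.08 and 0.16. ENST00000229277 made up 22.1% of ENO2 in NC, 26.1% in GAS5 and 51.6% in siYAP, from 432, 443 and 1058 mean counts. The assembled transcript TCONS_00027685, a model built from the reads, made up 61.4%, 60.8% and 40.2%. The shift was thus seen in siYAP and lay between an annotated and an assembled model.

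The other shifts were smaller. For EPAS1, the assembled TCONS_00078118 held 80.8%, 73.5% and 70.2% of the counts in NC, GAS5 and siYAP. For KDM3A, ENST00000312912 held 36.2%, 28.5% and 24.6%. For P4HA1, ENST00000263556 held 16.0%, 18.7% and 27.4%. A shift in GAS5 was seen for PDK1, where ENST00000410055 held 24.9%, 35.0% and 31.0%. Transcript counts are estimates for models that share most of their sequence, and no error of the assignment is given.

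**Figure D5:**
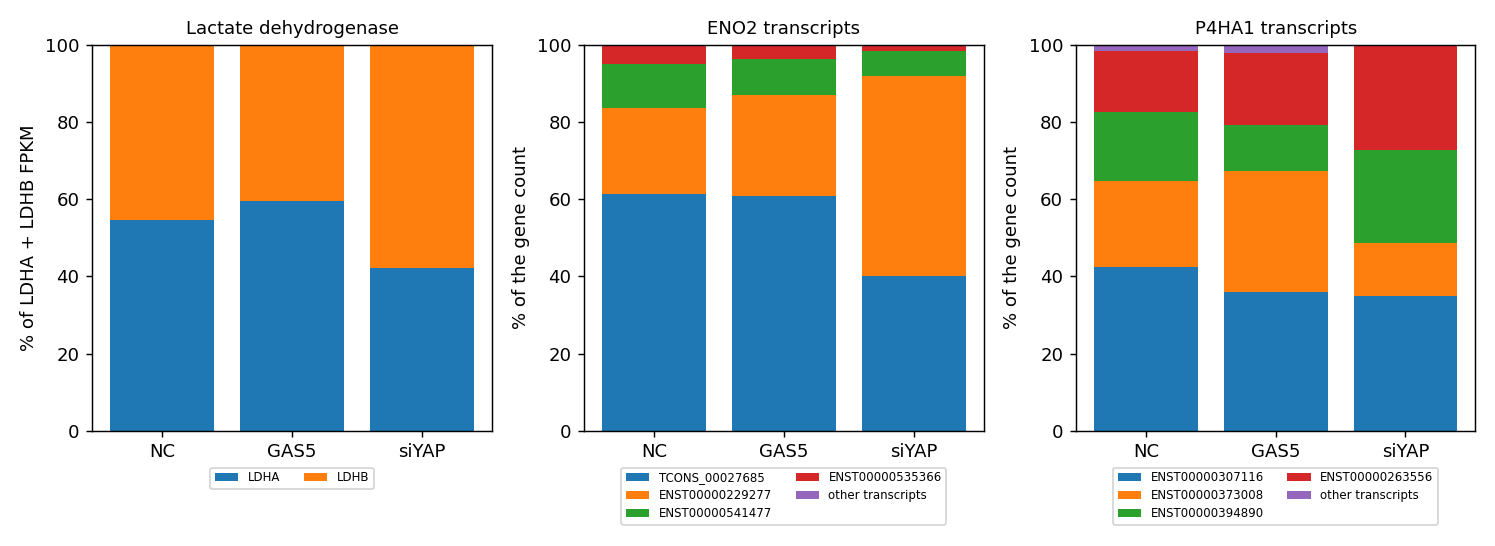
Stacked shares in NC, GAS5 and siYAP: LDHA and LDHB as percent of their summed FPKM, and the transcripts of ENO2 and of P4HA1 as percent of the gene count, with 1 mean per group. LDHA makes up 59.5% in GAS5 and 42.1% in siYAP, and ENST00000229277 makes up 22.1% of ENO2 in NC and 51.6% in siYAP.

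Other genes of the pathway outside the 41 were read from 3 lists, which overlap. GYS1 and GBE1 are in the lists of glycolysis and of hypoxia targets, and CITED2 is in those of hypoxia targets and of HIF control. Of 40 further genes of glycolysis and pyruvate metabolism, 30 passed the minimum, with a median of -0.08 in GAS5 and -0.02 in siYAP. In GAS5, 1 was at least 1.5-fold higher and 2 lower (10% in either direction, against 4.54% of all genes), and in siYAP 1 was higher and 1 lower (6.67%, against 7.13%). HKDC1, a further hexokinase, was the widest, with mean counts of 124 in NC, 38 in GAS5 and 229.5 in siYAP. It had -1.54 (-1.96 to -1.22), 0.97 (0.76 to 1.20) and -2.51 (-2.91 to -2.22), the same order of groups as SLC2A3. The lower gene beside it in GAS5 was PCK2, the mitochondrial enzyme that turns oxaloacetate into phosphoenolpyruvate, at -0.99 (-1.03 to -0.94) in GAS5 and -0.01 in siYAP, named after its value was seen.

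Of 36 further symbols of hypoxia targets, 35 were in the tables, and the absent one, ERO1L, is an earlier name of ERO1A. Of the 35, 30 passed the minimum, with medians of 0.00 and -0.01. In GAS5, 3 were at least 1.5-fold higher and 2 lower (16.7% in either direction, against 4.54% of all genes), and in siYAP 2 were higher and 0 lower (6.67%, against 7.13%). CA12, a carbonic anhydrase of the cell surface related to CA9, reached 2-fold, with mean counts of 44.0, 86.0 and 93.3 and values of 1.05 (0.72 to 1.46) and 1.14 (0.81 to 1.54). Of 17 further symbols of HIF control, 16 were in the tables and 13 passed, none at 1.5-fold against NC, and the medians were 0.08 and 0.04. TCEB2 and TCEB1 in this list are earlier names of ELOB and ELOC, so the symbols stand for fewer genes. In GAS5 against siYAP, HSP90AA1, a chaperone that binds the alpha subunits, was 0.75 higher, also named after its value was seen. It was the only 1 of these 13 past 1.5-fold there (7.69%, against 12.8% of all genes in either direction). Of the 30 further glycolysis and pyruvate genes, 1 was at least 1.5-fold higher and 4 lower in that comparison (16.7%). Of the 30 further hypoxia targets, 1 was lower and 0 higher (3.33%).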

How the data were processed

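RNA of 6 libraries, 2 in each of NC, GAS5 and siYAP, was sequenced by the authors. Per the submitters' processing notes, TopHat2 2.1.1 was among the tools. The counting tool and the genome build are not given in the sources used here. The deposited expected counts (estimated counts per mRNA transcript) and FPKM values come in columns that name a group and no library. They were taken as means over the 2 libraries of each group. In FPKM, 0.001 was read as 0. The deposited log2 fold change, p-value and FDR columns hold the authors' own comparison and were not used.

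The 92866 transcripts of the 2 tables were joined by identifier and summed by the upper-case symbol of the siYAP table. Of these, 12002 were assembled models, which entered the sum of their symbol where they carried one. The 339 transcripts without a symbol (0.195% to 0.224% of counts) entered no sum. To check the reading as means of 2 libraries, gene sums were doubled, and 89.8% of the doubled values were whole within 0.05. The intervals rest on this reading. Sums were scaled by TMM (edgeR 4.0.16 in R 4.3.3, NC as reference, relative sizes 0.92 for GAS5 and 0.939 for siYAP) and compared as log2 ratios with a prior count of 2. Genes needed a mean of 50 over the 3 groups. Wilson intervals at 95% were computed on the counts behind the mean of 2 libraries with scipy 1.17.1 (Python 3.11.15, numpy 2.4.6, pandas 2.3.3), and figures were drawn with matplotlib 3.10.9. PCR copies without molecular identifiers are not independent molecules, so the intervals are narrower than the true error. Scaling and fold changes were checked on simulated counts with set differences.

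The edgeR quasi-likelihood test planned for counts needs separate libraries and was not run, so called means past 1.5-fold or 2-fold. The 41 genes and all lists were chosen with earlier results of these data known. Full values are given for genes past 1.5-fold in any comparison, the most abundant gene of each role, and GAPDH, PKM, LDHA, HK2, SLC2A1, CA9, VEGFA and HIF1A. Transcripts were named where their share differed by 10 points, and genes of the other lists at 2-fold. Other genes are given in brief. Shared stretches of 50 bases and positions were read from GENCODE 29. For the stretches, genes were told apart by identifier and not by position, so overlapping entries count as other genes. The stretch check used the transcript with the most counts among those in GENCODE 29, so assembled models were not checked. For EPAS1, ENO2 and PGK1 an assembled model held more of the counts in NC. In 10 of the 41 genes, fewer than 95% of the stretches of the checked transcript occur in no other gene. These include HK2 (91.4%), GPI (92.8%) and BNIP3 (82%). The alternatives were DESeq2 1.42.0 size factors, total counts, FPKM sums, a prior count of 0.5, no minimum and Ensembl transcripts alone.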

Additional observations from a re-analysis of the deposited data

How the results depend on the processing

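Of 270 values of named genes under 6 alternatives, 226 stayed within their counting interval and 44 moved outside it. Leaving out the minimum does not change the value of a gene by construction, so its values among the 226 could only stay. None of the values past 1.5-fold changed sign. Of the values nearer 0, 4 did, in 3 results: PKM in GAS5 against NC (0.03) was -0.002 with FPKM sums, GAPDH in siYAP against NC (0.02) was -0.02 with total counts and with FPKM sums, and PFKFB3 in GAS5 against siYAP (-0.02) was 0.03 with FPKM sums. With Ensembl transcripts alone, the number of genes at least 1.5-fold lower in GAS5 against NC was 0 in place of 1, because SLC2A3 dropped under 1.5-fold, and the number higher in siYAP against NC was 3, with ENO2 and EPAS1 joining SLC2A3. The number higher in siYAP was 0 with total counts and 0 with FPKM sums, and the number lower in siYAP was 1 with FPKM sums, where PDK1 was left out. In GAS5 against siYAP, VEGFA was under 1.5-fold with FPKM sums and ENO2 passed it with Ensembl transcripts alone. DESeq2 size factors and a prior count of 0.5 moved no gene of the 40 across 1.5-fold, and leaving out the minimum could not move any. The cause was not tested.

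No paired analysis was possible because each group is a single column without a replicate number. For the same reason the fits with a replicate block, leaving out each library in turn, edgeR's quasi-likelihood test and DESeq2's test were not run, and the spread between the 2 libraries of a group is unknown. Counting error limits SLC2A3, PDK3, EGLN3 and ANKRD37 most, which have few counts.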
